A study of Mus musculus with 77 samples.

Results

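The 10 genes described here belong to insulin and insulin-like growth factor (IGF) signalling and were taken by symbol, whatever their values: the growth factors Igf1 and Igf2, the receptors Insr, Igf1r and Igf2r, the adaptors Irs1 and Irs2, the phosphoinositide 3-kinase (PI3K) subunit Pik3r1, and the binding proteins Igfbp2 and Igfbp5. All 10 were measured in both tables used, among 16587 genes of AGO2-bound mRNA from the BNST (bed nucleus of the stria terminalis, an extended amygdala region involved in anxiety) and 13084 genes of blood cell RNA. The tables held 18308 different genes together. Each gene was one row in each table.

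Insulin and IGF1 act on closely related receptor tyrosine kinases, the insulin receptor and the IGF1 receptor. The activated receptors phosphorylate the adaptors IRS1 and IRS2, which recruit PI3K and so reach AKT, mTOR and the FOXO transcription factors. IGF2 also binds these receptors and is cleared by the IGF2 receptor, and the IGF binding proteins hold the growth factors outside cells. In the adult brain, IGF2 comes largely from the choroid plexus and meninges, while neurons and glia carry the receptors. microRNAs (miRNAs) pair through their seed, bases 2 to 8, with mRNAs held in the same Argonaute complex.

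All animals were male, 8 weeks old at dissection, of the inbred strains C57BL/6Crl (B6) or DBA/2Crl (D2). Stressed mice went through 10 days of chronic social defeat stress (CSDS), in which a larger aggressor attacks the mouse daily, and controls of the same strain lived beside an unfamiliar mouse behind a divider. Stressed mice with a social interaction ratio more than 1 SD below the control mean were classed as susceptible and the others as resilient, and tissue was taken 6 to 8 days after the stress. For sequencing, the study picked the resilient mice with the highest ratios, the susceptible mice with the lowest, and controls near the mean. Each AGO2 library combined the BNST of 3 B6 mice, with 5 control, 5 resilient and 4 susceptible pools for mRNA and 5, 5 and 3 for miRNA. In blood, each library was 1 mouse, with 5 mice each of B6 control, B6 resilient, B6 susceptible, D2 control and D2 susceptible. There were no blood libraries of resilient D2 mice, from which the study did not obtain enough blood, and no AGO2 libraries of D2 mice.

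Argonaute 2 (AGO2) immunoprecipitation keeps RNA held in the silencing complex, so a higher value means a larger share of the bound mRNA and not more mRNA in the tissue. In pools and blood alike, fewer cells of a type and less RNA per cell cannot be told apart. The AGO2 mRNA libraries held 3701281 to 10659882 reads, the AGO2 miRNA libraries 3173294 to 9404828 and the blood libraries 9751603 to 15878495. Markers fixed for BNST and hypothalamus were detected for 10 of 10 genes in the AGO2 table, and all 5 neuronal markers were detected. Of the 5 B cell and 5 NK cell markers, 0 were in the AGO2 table. For 2 D2 mice, the labelled group and the name of the data column disagreed (D2 control mouse 2 and D2 susceptible mouse 2). The labelled groups were used, and calls that rest on D2 mice are also given with the other assignment and without these mice.

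The miRNAs below are those that the study paired with a member as its predicted or known target, and they are shown because the AGO2 experiment measures both partners. The study chose these pairs on the same pools and kept those whose partners changed in the same direction, so they are not independent evidence of a direction. It first adjusted these data for cohort or surrogate variables, which was not repeated here, so calls can differ from its own. The mature sequences are those of RefSeq on GRCm38.p6, from 5′ to 3′, with the seed in capitals, and 6 of 6 miRNAs had an entry.
miR-126a-3p, paired with Irs1: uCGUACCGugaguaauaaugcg
miR-217-5p, paired with Irs1: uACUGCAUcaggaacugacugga
miR-99b-5p, paired with Igf1r: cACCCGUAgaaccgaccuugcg
miR-100-5p, paired with Igf1r: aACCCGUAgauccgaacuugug
miR-7032-3p, paired with Igfbp5: aUCCUCUCgguaccgcccugca
miR-134-3p, paired with Igf2: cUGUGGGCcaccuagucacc
Of these, miR-99b-5p (chromosome 17, 17830194 to 17830215, plus strand) and miR-100-5p (chromosome 9, 41531437 to 41531458, plus strand) share 1 seed, and the other 4 each have their own.

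The longest 3′ UTR of each member in GENCODE M21 (GRCm38) was searched on the sense strand for the reverse complement of each seed. Igf1r (ENSMUSG00000005533, chromosome 7, 67952827 to 68233668, plus strand) held 1 match to the seed of miR-99b-5p and miR-100-5p in a 3′ UTR of 7267 bases, at chr7:68232107-68232114, shown here because it is the only match of a paired receptor: agatTACGGGTAgtcg, where capitals mark the match and the A opposite base 1 of the miRNA. The 7 letters TACGGGT occurred in 1.55% of the longest 3′ UTRs of 13896 genes in the AGO2 table, and in 4.90% of the 347 between 80% and 125% of the length of Igf1r's.

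Igfbp5 (ENSMUSG00000026185, chromosome 1, 72857932 to 72874884, minus strand) held 4 matches to the seed of miR-7032-3p, GAGAGGA, in a 3′ UTR of 4445 bases. Both of those with the additional A are shown, since they are the longest matches, at chr1:72860858-72860865 (cagaGAGAGGAAaata) and chr1:72860796-72860803 (atttGAGAGGAAaaag). These letters are common, in 18.5% of all 3′ UTRs searched and in 38.4% of 1319 of similar length.
Irs1 (ENSMUSG00000055980, chromosome 1, 82233101 to 82291416, minus strand) held no 7-base match to the seeds of miR-126a-3p (CGGTACG) or miR-217-5p (ATGCAGT) in 4525 bases. It held 1 shorter match to bases 2 to 7 of miR-126a-3p followed by A, agatGGTACGAtgca at chr1:82237488-82237494, a kind of match found in 0.979% of the genes. The 3′ UTR of Igf2 (ENSMUSG00000048583, chromosome 7, 142650766 to 142666816, minus strand), 3050 bases long, held no match to the seed of miR-134-3p, GCCCACA. Matches also occurred outside the pairs, in Insr and Pik3r1 for miR-217-5p, in Irs1, Igf1 and Igf2r for miR-7032-3p, and in Igf1r and Pik3r1 for miR-134-3p. The shorter kind did so too, in Pik3r1 for miR-126a-3p, in Igf1r and Igf2r for miR-217-5p and in Irs2 for miR-7032-3p. For miR-134-3p it occurred in Insr, Igf1 and Igfbp5. The 0.979% for the shorter kind covers 3′ UTRs of any length. For the full miR-126a-3p seed the share was 0.295% of all genes and 0.864% of 1273 with 3′ UTRs of similar length. A match is a string of letters and was not tested as a binding site.

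Levels between genes were compared per length, as log2 RPKM (reads scaled to library size and to exon length), in the control groups. In the AGO2 control pools Igf2 stood highest, at 78.9 RPKM from the mean log2 value, followed by Pik3r1 (40.5), Irs2 (26.1), Igfbp5 (24.6), Igf1r (20.6), Irs1 (18.9), Igf2r (11.5), Igf1 (9.28), Insr (8.84) and Igfbp2 (1.42). The step from Igf2 to Pik3r1 was 0.96 ± 0.26 on the log2 RPKM scale (SD, n = 5), with ranges that did not overlap. Ranges were also apart between Pik3r1 and Irs2, between Irs1 and Igf2r and between Insr and Igfbp2, while the other neighbours in the order overlapped. The adaptors Irs2 and Irs1 stood with Igfbp5 and Igf1r in a run of overlapping neighbours.
In the B6 control mice, the order in blood was another one. Pik3r1 stood at 14.995 RPKM, Insr at 3.80, Igf2r at 3.09, Igfbp5 at 1.54, Igf1r at 1.13, Igf2 at 1.05, Irs2 at 0.744, Igfbp2 at 0.571, Igf1 at 0.260 and Irs1 at 0.224. Only Pik3r1 and Insr were apart from their neighbour (1.98 ± 0.10 on the log2 RPKM scale, SD, n = 5). The tables were normalized separately, so no level was tested across them. Ins1 and Ins2, which encode insulin, were in neither table.

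The exons of Igf2 share 62.8% of their bases with the readthrough gene Gm49394 on the same strand, and 30.9% of the exon bases of Irs1 are covered by the gene Gm9747 on the opposite strand. Both neighbours are in neither table. The overlaps are those of GENCODE M21, and the study counted with another annotation release. The kits were stranded, but whether the counting used strand, which matters for Irs1, is not given in the sources used here. For Igf2, strand cannot separate the shared bases. How reads in shared bases were counted was not examined, so the levels of both members could be affected.

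In the AGO2 libraries, resilient and susceptible pools were each compared with the same 5 control pools, so these comparisons share their controls, and then with each other. The question was which mRNAs and miRNAs in the silencing complex differ after stress, with and without social avoidance. A gene was called when p was under 0.05 in limma and the fold change was at least 1.2. By that rule 2 of the 10 members were called between resilient and control pools, Irs1 higher and Igfbp5 lower, where 17.7% of all genes were called. Between susceptible and control pools 3 of 10 were called, Irs1 higher and Igf2 and Igfbp5 lower, beside 18.9% of all genes, and between susceptible and resilient pools 0 of 10, beside 2.14%. At this size the members' shares cannot be set apart from those of all genes. No member had an adjusted p under 0.05 in limma in any comparison, and 3, 4 and 0 members had an unadjusted p under 0.05.

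**Figure D1:**
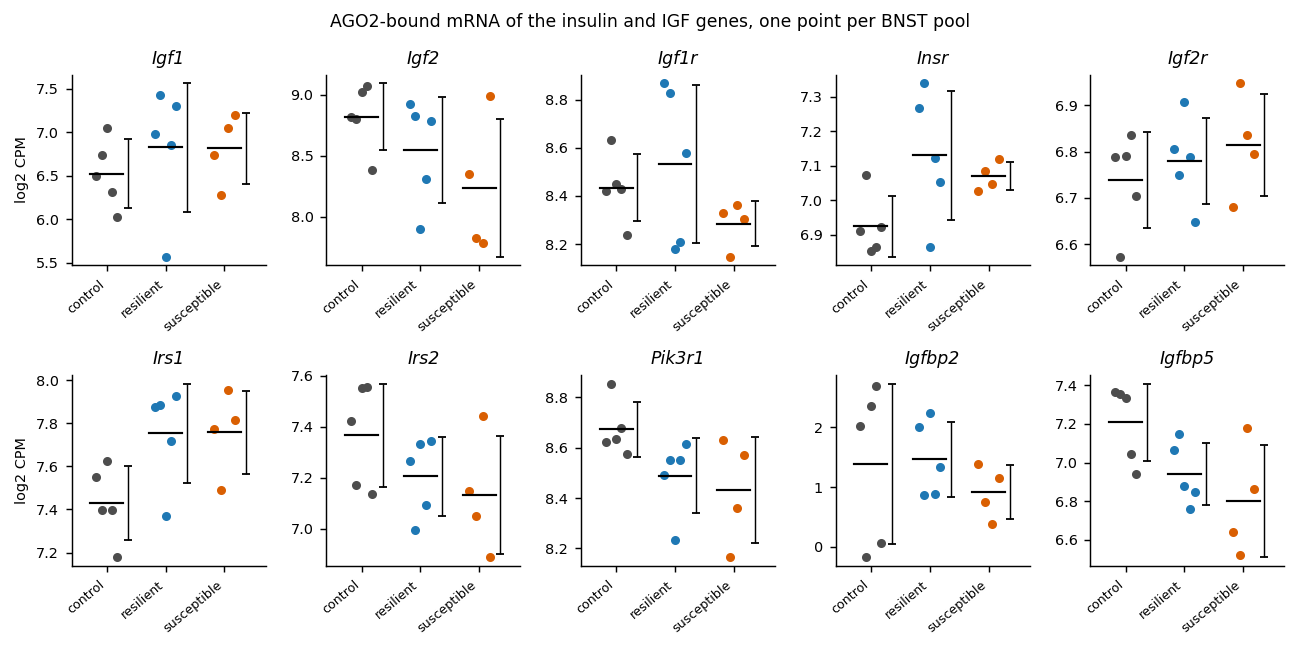
AGO2-bound mRNA of the 10 insulin and IGF genes, in log2 CPM (reads scaled to library size), in each BNST pool of control, resilient and susceptible B6 mice. Points are pools, lines are group means and the bars beside them are SD. For Irs1, 4 of the 5 resilient and 3 of the 4 susceptible pools lie above every control pool, while Igf2r lies within a narrow band in all pools.

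Irs1, the adaptor through which both the insulin and the IGF1 receptor reach PI3K, was the member with the highest fold changes against controls. The control pools held 7.55, 7.40, 7.63, 7.40 and 7.18 log2 CPM of Irs1. The resilient pools held 7.88, 7.88, 7.37, 7.72 and 7.93 log2 CPM, and the susceptible pools 7.77, 7.49, 7.95 and 7.81. Thus 4 of 5 resilient and 3 of 4 susceptible pools exceeded every control pool, while resilient pool 3 and susceptible pool 2 lay within the control range. The log2 fold change was 0.33 in resilient pools (SE 0.12, adjusted p = 0.137 in limma, exact permutation p = 0.0476 two-sided) and 0.33 in susceptible pools (SE 0.13, adjusted p = 0.142 in limma, exact permutation p = 0.0476). The smallest p that the exact permutation test could give was 0.00794 with 5 against 5 pools and 0.0159 with 4 against 5. The call was lost without control pool 5, at 0.26 in resilient and 0.27 in susceptible pools, and for susceptible pools also without susceptible pool 3, at 0.26.

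Irs2, the other adaptor of these receptors, did not share this pattern of calls. The control pools held 7.42, 7.17, 7.55, 7.56 and 7.14 log2 CPM of Irs2, the resilient pools 7.27, 7.00, 7.33, 7.09 and 7.34, and the susceptible pools 7.15, 7.05, 7.44 and 6.89. All groups overlapped, and the log2 fold changes, -0.16 in resilient and -0.23 in susceptible pools, were not called. The difference between the adaptors was not tested.

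The miRNAs paired with Irs1, miR-126a-3p (chromosome 2, 26591402 to 26591423, plus strand) and miR-217-5p (chromosome 11, 28763761 to 28763783, plus strand), were the 2 of 6 paired miRNAs called between resilient and control pools, beside 9.52% of all 788 miRNAs. miR-126a-3p, a miRNA known from endothelial cells, held 9.84, 9.83, 10.20, 10.16 and 9.95 log2 CPM in control pools, 10.29, 10.59, 9.98, 10.26 and 10.44 in resilient pools, and 10.01, 9.99 and 10.40 in susceptible pools. In 4 of 5 resilient pools it was above every control pool, and resilient pool 3 was the exception. The log2 fold change was 0.32 (SE 0.12, adjusted p = 0.303 in limma, exact permutation p = 0.0397), and the call was lost without control pool 2 (0.27) or resilient pool 2 (0.25).

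miR-217-5p, best known from the pancreas, was a rare miRNA here, with 12 to 157 reads a pool. It held 1.71, 3.68, 3.78, 1.90 and 2.02 log2 CPM in control pools, 4.64, 4.02, 2.98, 2.97 and 3.63 in resilient pools, and 2.85, 2.48 and 3.21 in susceptible pools. Only 2 resilient pools were above every control pool, and the groups overlapped. The log2 fold change of 1.03 in resilient pools (SE 0.45, adjusted p = 0.332 in limma, exact permutation p = 0.0952) was called, and the call was lost without control pool 1, 4 or 5 or without resilient pool 1 or 2, where it was 0.78 to 0.94. So the 2 miRNAs paired with Irs1 and Irs1 itself were each called higher in AGO2 of resilient pools, and in susceptible pools Irs1 was called higher while neither miRNA was (log2 fold changes 0.14 and 0.23).

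**Figure D2:**
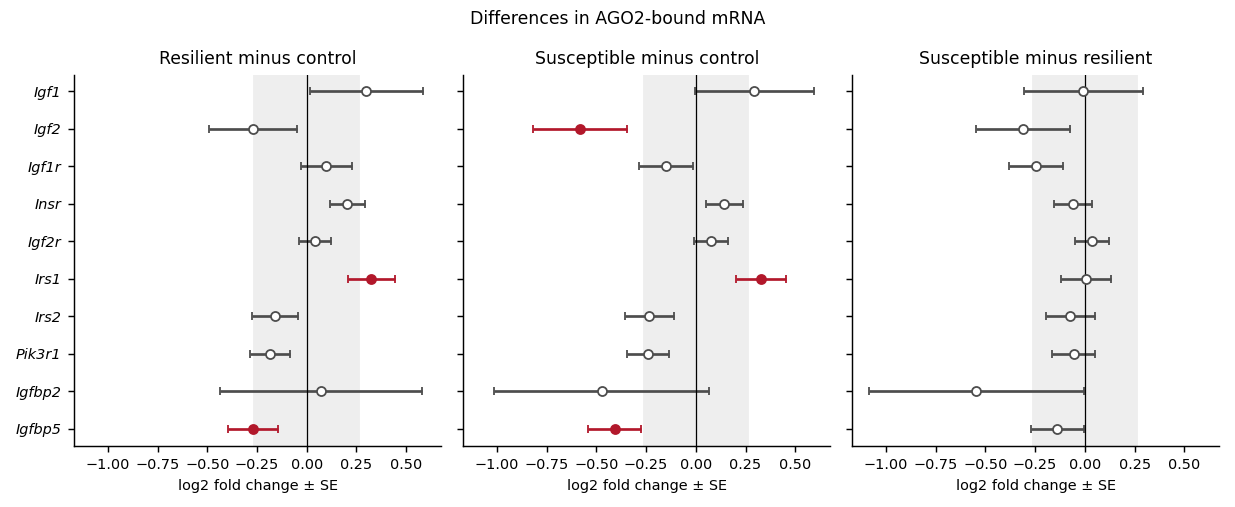
Differences in AGO2-bound mRNA of the 10 genes between the groups of BNST pools, as log2 fold change (x axis) with SE bars, for resilient against control, susceptible against control and susceptible against resilient pools. The grey band marks fold changes under 1.2, filled red points are called differences and open points are not, and Irs1 lies to its right at 0.33 against controls in both comparisons, which share the control pools.

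Insr, the insulin receptor, was the receptor with the lowest p in the comparison with controls. The control pools held 6.91, 7.07, 6.85, 6.86 and 6.92 log2 CPM of Insr, the resilient pools 7.27, 7.34, 6.87, 7.12 and 7.05, and the susceptible pools 7.03, 7.08, 7.05 and 7.12. In 3 of 5 resilient pools it was above every control pool, as in 2 of 4 susceptible pools. The log2 fold change of 0.20 in resilient pools (SE 0.09, adjusted p = 0.206 in limma, exact permutation p = 0.0794) was under the fold limit, as was 0.14 in susceptible pools (SE 0.10, adjusted p = 0.400 in limma, exact permutation p = 0.0476).

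Igf1r, which binds IGF1 and IGF2, held 8.42, 8.63, 8.45, 8.43 and 8.24 log2 CPM in control pools, 8.87, 8.83, 8.18, 8.21 and 8.58 in resilient pools, and 8.33, 8.15, 8.36 and 8.30 in susceptible pools. Resilient pools reached both above and below all controls, with 2 pools on each side. No difference was called: 0.10 in resilient pools (SE 0.13), -0.15 in susceptible pools (SE 0.14, exact permutation p = 0.127) and -0.25 between susceptible and resilient pools (SE 0.14, adjusted p = 1.00 in limma, exact permutation p = 0.222). The last was called without resilient pool 3, at -0.34, or without resilient pool 4, at -0.33.

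The miRNAs that share the seed matched in the Igf1r 3′ UTR are those of the miR-99/100 family. miR-99b-5p, the more abundant, was the only one of the 6 paired miRNAs called between susceptible and control pools, beside 4.7% of all miRNAs, at -0.48 on the log2 scale (SE 0.14, adjusted p = 0.602 in limma, exact permutation p = 0.107, where the smallest possible is 0.0357). Its values were 12.98, 12.73, 12.92, 12.92 and 12.76 log2 CPM in control pools and 12.05, 12.26 and 12.85 in susceptible pools, so that 2 of 3 susceptible pools were below every control, and without susceptible pool 1 the fold change was -0.31 and not called. miR-100-5p, with the same seed, held 9.67, 9.43, 9.79, 9.95 and 9.77 log2 CPM in control pools and 8.85, 8.95 and 10.10 in susceptible pools. In the same 2 susceptible libraries it was below every control and in the other above every control, and the log2 fold change of -0.42 (SE 0.23) was not called. Without susceptible pool 4, the one above the controls, it was -0.82 and called (SE 0.18, adjusted p = 0.0298 in limma), and with sample weights it was -0.61 and called. The study, after adjusting for surrogate variables, reported miR-99b/100 as lower in susceptible than in control or resilient mice. Against controls its adjusted p was under 0.05 in limma, unlike here, and it paired miR-99b/100 with Igf1r in the comparison with resilient mice. Here, between susceptible and resilient pools 0 of 6 paired miRNAs were called, beside 3.93% of all miRNAs. Without susceptible pool 4 there were 3, beside 10.3% of all miRNAs: miR-99b-5p went from -0.25 to -0.48, miR-100-5p from -0.27 to -0.67 and miR-126a-3p from -0.18 to -0.31, with adjusted p of 0.128 to 0.473 in limma. With sample weights the first 2 of these were called, beside 7.11% of all miRNAs.

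Igf2r, the receptor that carries IGF2 to the lysosome, was the steadiest member. Its highest pool held 1.30 times the CPM of its lowest, over all 14 pools, and its log2 fold changes were 0.04 in resilient pools (SE 0.08), 0.08 in susceptible pools (SE 0.09) and 0.04 between them (SE 0.09).

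Igf2, the growth factor with the highest level per length, was called lower in susceptible pools. The control pools held 8.82, 8.80, 9.02, 9.07 and 8.38 log2 CPM of Igf2, the resilient pools 8.92, 8.83, 7.90, 8.31 and 8.78, and the susceptible pools 8.35, 7.83, 7.79 and 8.98. In 3 of 4 susceptible and 2 of 5 resilient pools Igf2 was below every control pool, while susceptible pool 4 lay among the controls. The log2 fold change was -0.58 in susceptible pools (SE 0.24, adjusted p = 0.169 in limma, exact permutation p = 0.0952) and -0.27 in resilient pools (SE 0.22), which was not called. The call in susceptible pools was lost without control pool 3 (-0.53), control pool 4 (-0.52), susceptible pool 2 (-0.45) or susceptible pool 3 (-0.43). The rare miR-134-3p, paired with Igf2, held 14 to 67 reads a pool and was not called, with log2 fold changes of -0.09 in resilient and -0.39 in susceptible pools.

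Markers of other cells were also compared, where 9.04% of all genes were called lower in resilient and 9.28% in susceptible pools. The shares called higher were 8.65% and 9.65%. In lists this small, single calls cannot be set apart from these shares. All 7 choroid plexus markers were detected, and their summed level was 35.2 to 198 CPM in control, 26.5 to 145 in resilient and 15.1 to 64.7 in susceptible pools, with 2 of 7 called lower in resilient and 7 of 7 in susceptible pools. The 6 oligodendrocyte markers summed to 3525 to 5256 CPM in control, 2253 to 4399 in resilient and 2155 to 3591 in susceptible pools, with 2 of 6 called lower and 1 of 6 called higher in susceptible pools. In resilient pools 1 was called lower and 1 higher. The median log2 fold change of these markers was 0.06 in resilient and -0.09 in susceptible pools, so the sum does not stand for each of them. The 3 pools with the lowest sums of AGO2-bound oligodendrocyte markers, resilient pool 3 (2253 CPM) and susceptible pools 2 and 3 (2155 and 2479 CPM), were the 3 with the least Igf2. The 9 markers of striatal projection neurons, from the region that borders the BNST, summed to 1924 to 3120 CPM in control, 866 to 3593 in resilient and 934 to 2627 in susceptible pools, with 2 called lower in each comparison with controls. The 5 neuronal markers summed to 1461 to 1798 CPM in control, 1319 to 1602 in resilient and 1023 to 1463 in susceptible pools, with 1 and 3 called lower. The 6 markers of endothelium and pericytes summed to 213 to 253, 187 to 233 and 184 to 216 CPM, with 1 and 2 called lower. Of 5 astrocyte markers, 1 was called higher and 2 lower in susceptible pools, and 0 in resilient pools. Of 6 microglia markers, 1 was called higher and 1 lower in each comparison with controls. The part of these cells in the differences of the members and miRNAs was not tested.

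Across the 14 pools, Igf2 followed the summed oligodendrocyte markers with Pearson's r of 0.90 (Spearman's rho 0.81), and r was 0.86 for deviations from the group means and 0.83 without the 2 pools farthest from the median of the markers. The corresponding r with the choroid plexus markers was 0.52 (rho 0.63). Pik3r1 had an r of 0.90 with the oligodendrocyte markers (rho 0.73, 0.76 without the 2 farthest pools). Irs1, Igf1 and Insr ran against the striatal markers, with r of -0.69, -0.73 and -0.73 (rho -0.72, -0.80 and -0.66). These are descriptions picked from 140 pairs of a member and a marker list, and the points share the library, its depth and its scaling.

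**Figure D3:**
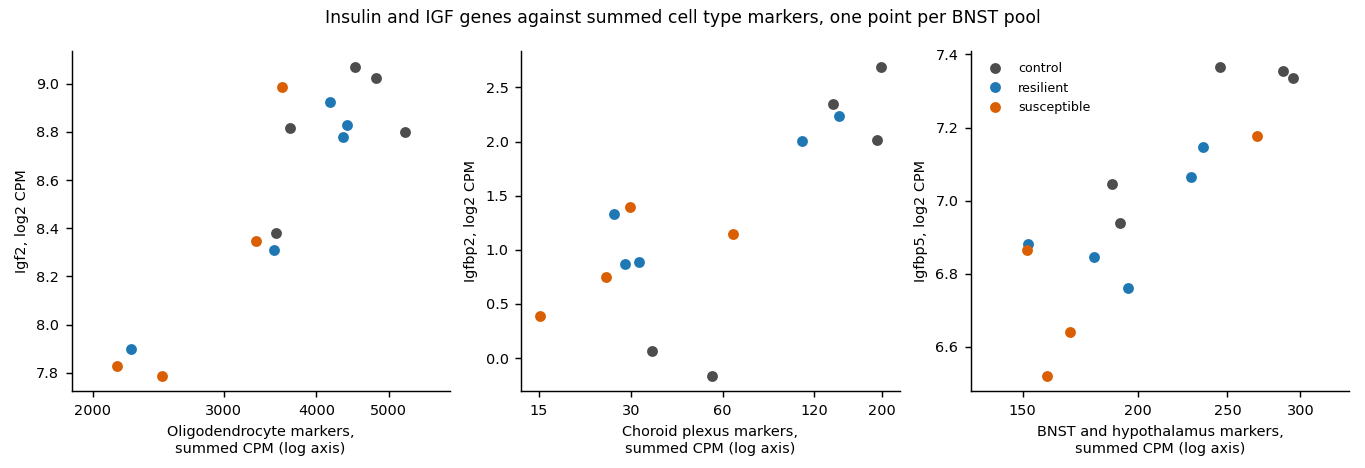
AGO2-bound Igf2, Igfbp2 and Igfbp5 in log2 CPM (y axes) against the summed CPM of markers of oligodendrocytes, of the choroid plexus and of BNST and hypothalamus (x axes, log scale), with 1 point for each of the 14 BNST pools, coloured by group. Igf2 is lowest in the 3 pools with 2155 to 2479 CPM of oligodendrocyte markers, and each panel rises from left to right with r between 0.77 and 0.90.

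Igf1, the ligand made by neurons and microglia in adult brain, spread more within groups than it differed between them. The control pools held 6.49, 6.74, 7.05, 6.31 and 6.02 log2 CPM of Igf1, the resilient pools 6.97, 7.42, 5.57, 6.85 and 7.30, and the susceptible pools 6.73, 6.28, 7.05 and 7.20. Resilient pool 3 was the lowest of all pools and resilient pool 2 the highest, 3.62 times apart in CPM. The log2 fold changes of 0.30 in resilient (SE 0.28) and 0.29 in susceptible pools (SE 0.30) were not called. Igf1 and Irs1 varied together over the 14 pools (r = 0.84, rho 0.86).

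Igfbp5, a binding protein stored in extracellular matrix, was called lower in both groups of stressed mice. The control pools held 7.37, 7.35, 7.34, 7.05 and 6.94 log2 CPM of Igfbp5, the resilient pools 7.06, 7.15, 6.88, 6.76 and 6.85, and the susceptible pools 6.64, 6.52, 7.18 and 6.86. In each stressed group 3 pools lay below every control pool, and the others lay within the control range. The log2 fold change was -0.27 in resilient pools (SE 0.13, adjusted p = 0.235 in limma, exact permutation p = 0.0635) and -0.41 in susceptible pools (SE 0.13, adjusted p = 0.0902 in limma, exact permutation p = 0.0635), the lowest adjusted p of any member in the AGO2 libraries. In resilient pools the call was lost without control pool 1, 2 or 3 or resilient pool 3, 4 or 5 (-0.22 to -0.25), while in susceptible pools it held without any 1 pool (-0.31 to -0.53).
Igfbp5 varied with the 10 markers of BNST and hypothalamus (r = 0.86, rho 0.82, 0.81 for deviations from group means, 0.78 without the 2 farthest pools), which summed to 187 to 295 CPM in control, 152 to 235 in resilient and 152 to 269 in susceptible pools. Of these 10 markers, 1 was called lower in resilient pools, and 1 higher and 2 lower in susceptible pools. The part of the dissection in the difference was not tested. miR-7032-3p, the miRNA paired with Igfbp5, held only 4 to 34 reads a pool, and its log2 fold changes of -0.99 in resilient (SE 0.51) and -0.87 in susceptible pools (SE 0.59) were not called.

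Igfbp2, a binding protein made by the choroid plexus and astrocytes, was near the lower limit of the AGO2 table, with 4 to 50 reads a pool. It held 2.02, -0.17, 2.35, 2.69 and 0.07 log2 CPM in control pools, 2.00, 0.87, 2.23, 0.89 and 1.33 in resilient pools, and 1.39, 0.75, 0.39 and 1.14 in susceptible pools. Controls split widely, and all other pools lay within their range. Its r with the summed choroid plexus markers was 0.77 (rho 0.70, 0.84 for deviations from group means, 0.68 without the 2 farthest pools). The genes most like Igfbp2 across the pools, among 12639 genes with a mean of at least 2 log2 CPM, were Alpl (r = 0.82), Rbm47 (0.80) and Kl (0.77). Kl, which encodes Klotho, a protein of the choroid plexus, is itself among the choroid plexus markers summed here, so its r is not separate from theirs.

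Pik3r1, the regulatory subunit that docks PI3K to the IRS proteins, held 8.62, 8.85, 8.63, 8.68 and 8.57 log2 CPM in control pools, 8.49, 8.55, 8.23, 8.55 and 8.61 in resilient pools, and 8.63, 8.17, 8.36 and 8.57 in susceptible pools. In 4 of 5 resilient pools it was below every control pool. The log2 fold changes of -0.18 in resilient pools (SE 0.10, adjusted p = 0.313 in limma, exact permutation p = 0.0159) and -0.24 in susceptible pools (SE 0.11, adjusted p = 0.206 in limma, exact permutation p = 0.0635) were not called, the second because it was under the fold limit.

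Likeness across the 14 pools was also ranked for other members, again as a description of points that share their libraries. Igf2 was most like Cd63 (r = 0.92), Igf2r most like Rptor (0.89), the mTOR complex 1 scaffold, and Igfbp5 most like Kcnd3 (0.95) and Timp3 (0.94). Irs1 was most like Sh3d19 (0.93), Irs2 most like Rtn4rl1 (0.90), Insr most like Fam227a (0.93), Igf1 most like Utp14b (0.94) and Pik3r1 most like Agfg2 (0.94).

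Around the members, 74 other genes of the pathway were listed (adaptors, PI3K to AKT, FOXO and GSK3, mTOR, RAS to ERK, negative regulators, binding proteins and their regulators), and 67 of them were in the AGO2 table. Between resilient and control pools 9 were called higher and 7 lower, beside 8.65% and 9.04% of all genes, with a median log2 fold change of 0.03, beside -0.02 over all genes, and between susceptible and control pools 8 were called higher and 8 lower, beside 9.65% and 9.28%, with a median of -0.01, beside -0.01. Between susceptible and resilient pools 1 was called, Stc1, which encodes a calcium-regulating hormone that inhibits a protease of IGF binding proteins, lower at -0.28. Higher and lower calls were near balance in both comparisons with controls.

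Of these genes, 1 had an adjusted p under 0.05 in limma in resilient pools and 4 in susceptible pools. The share of all genes under this adjusted limit is not given here, so the counts say nothing about the pathway as a whole. Tsc2, which restrains mTOR complex 1 downstream of AKT, rose in AGO2 from 6.78 ± 0.13 log2 CPM in control pools to 7.24 ± 0.14 in resilient and 7.30 ± 0.20 in susceptible pools (SD, n = 5, 5 and 4), without overlap with the controls, as for 5.18% and 10.9% of all genes. Its log2 fold change was 0.46 in resilient pools (SE 0.10, adjusted p = 0.0310 in limma) and 0.52 in susceptible pools (SE 0.11, adjusted p = 0.0150 in limma). In susceptible pools, Mlst8, a subunit of both mTOR complexes, rose by 0.41 (SE 0.11, adjusted p = 0.0411 in limma), Deptor, an mTOR inhibitor, fell by 0.68 (SE 0.18, adjusted p = 0.0436 in limma), and Grb2, the adaptor that leads from the receptors to RAS, fell by 0.48 (SE 0.12, adjusted p = 0.0355 in limma). All 3 were also called in resilient pools in the same direction, against the same controls, at 0.30 for Mlst8, -0.40 for Deptor and -0.28 for Grb2. Pik3cd, a PI3K catalytic subunit, and Shc1, an adaptor of receptor kinases, were called higher in both (0.44 and 0.51 for Pik3cd, 0.41 and 0.36 for Shc1), Map2k1, the ERK kinase, was called lower in both (-0.49 and -0.45), and Pik3ca, the main catalytic partner of Pik3r1 in most cells, was called lower in susceptible pools (-0.39).

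In blood, the comparisons asked whether stress changed these genes in circulating cells of each strain. Of the 10 members, 0 were called between resilient and control B6 mice (2.11% of all genes were called), 0 between susceptible and control B6 mice (4.5%), 0 between susceptible and resilient B6 mice (2.03%) and 0 between susceptible and control D2 mice (1.57%). No member had an unadjusted p under 0.05 in these 4 comparisons in limma either.

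**Figure D4:**
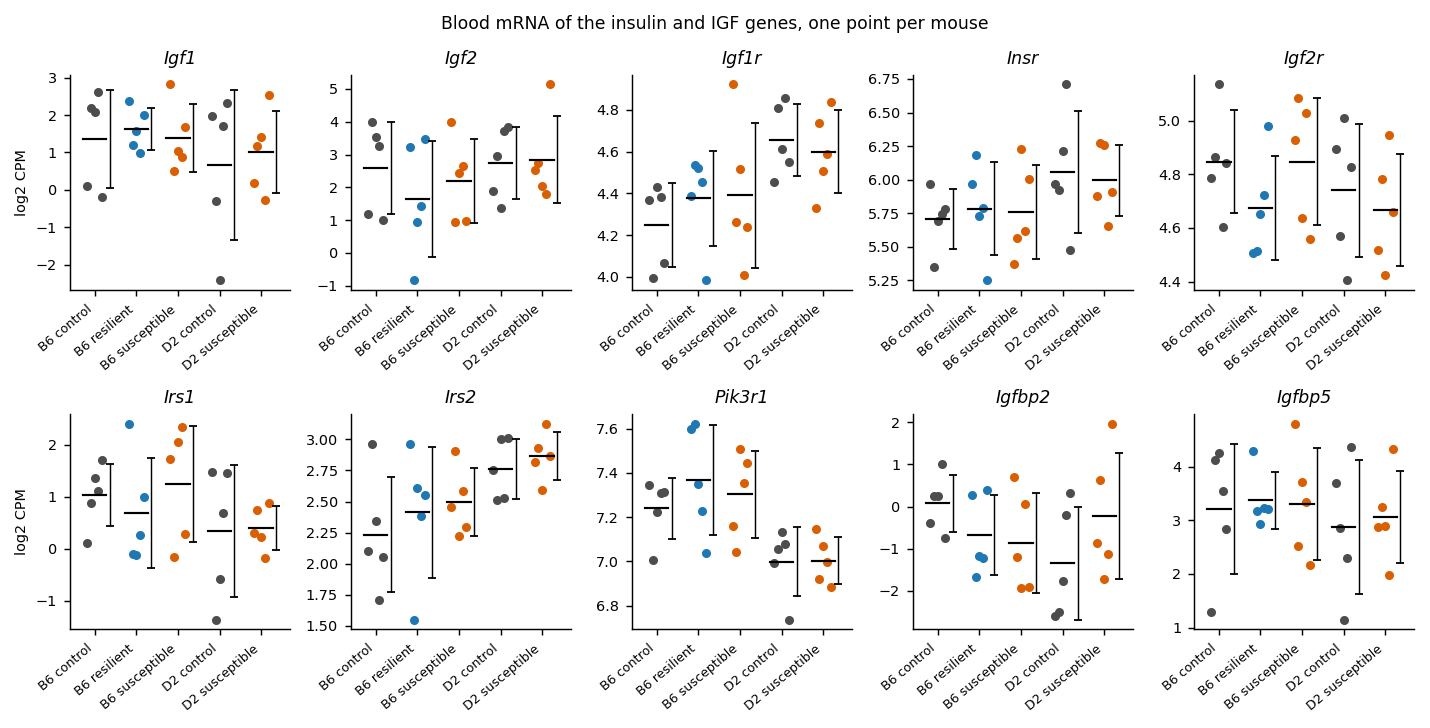
Blood RNA of the 10 insulin and IGF genes in log2 CPM, in each mouse of the 5 groups of B6 and D2 mice. Points are mice, lines are group means and the bars beside them are SD. Pik3r1, Insr, Igf2r and Igf1r lie in bands with highest over lowest CPM of 1.66 to 2.75, while Igf2, Igf1 and Igfbp2 spread over 23.9 to 63.0 times.

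The precision of these comparisons differed between members. Igf1r, Igf2r, Insr and Pik3r1 had at least 100 reads in every mouse (179 to 3063), and over their 16 comparisons between stressed and control or stressed groups the log2 fold changes were -0.17 to 0.17 with SE of 0.12 to 0.20 (smallest exact permutation p = 0.190). Igf1, Igf2, Igfbp2, Igfbp5, Irs1 and Irs2 had 2 to 490 reads, and over their 24 comparisons the log2 fold changes were -0.95 to 1.13 with SE of 0.23 to 0.80 (smallest exact permutation p = 0.143). A difference the size of that of Irs1 in the AGO2 pools, 0.33, was thus not detectable in blood, where Irs1 had 5 to 80 reads a mouse.

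Pik3r1, the leading member in blood, had 7.35, 7.01, 7.22, 7.31 and 7.31 log2 CPM in B6 control mice, 7.60, 7.62, 7.35, 7.23 and 7.04 in B6 resilient mice, and 7.16, 7.04, 7.51, 7.35 and 7.45 in B6 susceptible mice. D2 control mice had 6.99, 6.74, 7.06, 7.13 and 7.08, and D2 susceptible mice 6.92, 7.15, 7.07, 7.00 and 6.89. D2 control mice were mostly below B6 control mice, with 2 below every one of them, and the log2 difference of -0.24 (SE 0.12, adjusted p = 0.205 in limma, exact permutation p = 0.0317) was not called. It was -0.16 with the groups of the column names and -0.17 without the 2 mice in doubt.

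D2 control mice were then compared with B6 control mice, which asks how the strains differ without defeat. Here 2 of 10 members were called, Igf1r and Irs2, both higher in D2, beside 26.4% of all genes, so their share was not above that of all genes. Igf1r had 4.37, 4.00, 4.43, 4.38 and 4.07 log2 CPM in B6 control mice and 4.45, 4.55, 4.81, 4.61 and 4.86 in D2 control mice. Every D2 control mouse was above every B6 control mouse, the only such member, where the groups did not overlap for 12.0% of all genes. The log2 difference was 0.41 (SE 0.15, adjusted p = 0.0684 in limma, exact permutation p = 0.00794, the smallest this test can give). Irs2 had 2.10, 2.96, 2.34, 1.71 and 2.06 log2 CPM in B6 control mice and 2.75, 3.01, 2.51, 3.01 and 2.53 in D2 control mice, where 2 of 5 D2 mice were above every B6 mouse, with a log2 difference of 0.53 (SE 0.23, adjusted p = 0.126 in limma, exact permutation p = 0.0635).

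Without the 2 mice whose labels and column names disagree, Igf1r was still called (0.44) and the Irs2 call was lost (0.47), and with the groups of the column names both were called (0.36 and 0.49). Igfbp2 (-1.43, SE 0.71) and Insr (0.35, SE 0.20) were not called with the labelled groups, but both were with the column names (-1.66 and 0.43) and without the 2 mice (-1.84 and 0.50). The Irs2 call was also lost without B6 control mouse 1 (0.49), 4 (0.40) or 5 (0.48) or D2 control mouse 2 (0.47) or 4 (0.47). The prefixes of the sample names were nested in strain, so what they stand for and strain cannot be told apart. Blood cell markers differed between these groups as well, where 26.4% of all genes were called. All 5 B cell markers were called lower in D2 control mice (summed level 404 to 787 CPM, beside 642 to 904 CPM in B6), 3 of 5 platelet markers were called higher (3311 to 12805 CPM beside 1414 to 5358) and 3 of 6 erythroid markers were called lower. Of the T cell markers 3 of 6 were called higher (215 to 298 CPM beside 152 to 218), and of the neutrophil markers 2 of 6 (1417 to 3059 CPM beside 1100.3 to 3012). Their part in the strain differences was not tested.

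In the test of the difference itself between the strains, the stress response of 1 of 10 members was called, Igfbp2, beside 5.37% of all genes. At this size the members' share cannot be set apart from that of all genes. Igfbp2 had -0.39, 0.26, 0.26, 1.02 and -0.75 log2 CPM in B6 control mice and 0.70, -1.21, -1.93, 0.05 and -1.92 in B6 susceptible mice, a log2 fold change of -0.94. D2 control mice had -2.61, 0.32, -2.50, -1.77 and -0.19, and D2 susceptible mice 0.63, -0.86, -1.72, -1.13 and 1.97, a log2 fold change of 1.13. The difference, D2 minus B6, was 2.07 (SE 1.00, adjusted p = 0.918 in limma), and neither response was called on its own. These values rest on 2 to 54 reads a mouse, and the call was lost without any of 11 of the 20 mice compared (1.52 to 2.02): B6 control mice 2, 3 and 4, B6 susceptible mice 2, 3 and 5, D2 control mice 1, 3 and 4, and D2 susceptible mice 1 and 5. With the groups of the column names the difference was 2.54 and the response in D2 mice alone was called at 1.60 (SE 0.67, adjusted p = 0.686 in limma), and without the 2 mice in doubt they were 2.65 and 1.70. In the same test 4 of 5 platelet markers were called lower, and their part in the difference of Igfbp2 was not tested.

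**Figure D5:**
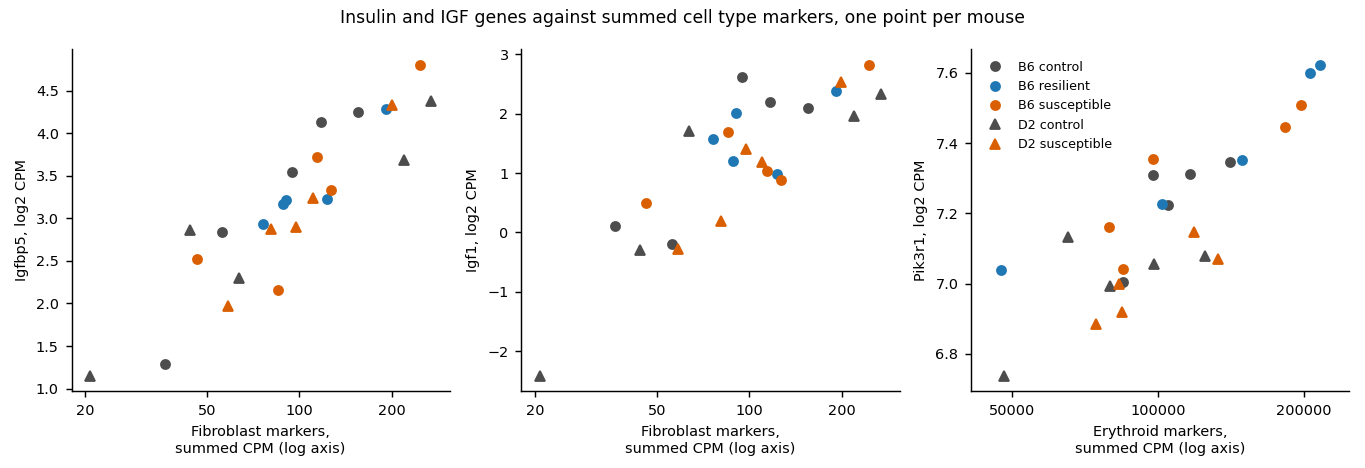
Blood Igfbp5, Igf1 and Pik3r1 in log2 CPM (y axes) against the summed CPM of fibroblast markers (for Igfbp5 and Igf1) and of erythroid markers (for Pik3r1; x axes, log scale), with 1 point for each of 25 mice, circles for B6 and triangles for D2. Igfbp5 rises with the fibroblast markers in both strains (r = 0.90 over all mice).

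Across mice, several members in blood varied with markers of cell types. The 8 fibroblast markers, from a list made for meninges of genes that circulating cells hardly express, were all detected and summed to 20.8 to 269 CPM over the 25 mice, and Igfbp5 followed them with r = 0.90 (rho 0.92, 0.91 for deviations from group means, 0.87 without the 2 farthest mice). The same r was 0.83 for Igf1, 0.69 for Irs1, 0.52 for Igf2 and 0.43 for Igfbp2. Among the 15 B6 mice, Igfbp5 was most like Col6a2 (r = 0.94), a collagen gene, and Igf1 was most like Fam129b (0.91) and Col14a1 (0.86), of 8951 genes searched.

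Insr and Pik3r1 varied with the 6 erythroid markers, all detected, in the 15 B6 mice, with r of 0.92 and 0.90 (rho 0.89 and 0.91, 0.88 and 0.89 without the 2 farthest mice), and in the 10 D2 mice with r of 0.60 and 0.70 (0.31 and 0.39 without the 2 farthest mice). In B6 mice Pik3r1 was most like Stam (0.97) and Tfrc (0.97), the transferrin receptor of maturing red cells, and Insr most like Eps15l1 (0.99). Igf1r ran against the B cell markers over the 25 mice (r = -0.71, rho -0.65, -0.62 without the 2 farthest mice) and in B6 mice was most like Cdk6 (0.93). All of these are descriptions of points that share a library and its scaling, from 140 pairs for each set of mice.

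Of the 74 other pathway genes, 59 were in the blood table. Between resilient and control B6 mice 1.69% of these were called, beside 2.11% of all genes. Between susceptible and control B6 mice the share was 3.39%, beside 4.5%. It was 1.69% between susceptible and resilient B6 mice, beside 2.03%, and 0 in D2 mice, beside 1.57%. These shares were near those of all genes. Socs2, a feedback inhibitor of growth hormone signalling, was called lower in B6 resilient mice (-1.35), Pik3r3 and Ptpn11 (both 0.55) were called higher in B6 susceptible mice, Igfbp4 was called higher in susceptible than resilient B6 mice (0.41), and 0 were called in D2 mice (with the column names 2 were, among them Ptpn11 at -0.55), with adjusted p of 0.968 to 1.00 in limma. Socs2 was near the lower limit of the table, at -4.01 to -0.35 log2 CPM in B6 resilient and -1.83 to 0.91 in B6 control mice. Its call was lost with a prior count of 2 reads. Between D2 and B6 control mice 8 were called higher and 2 lower, 16.9% of the 59, beside 26.4% of all genes, and 6 had an adjusted p under 0.05 in limma. For that adjusted limit too, the share of all genes is not given here. Stc2, which encodes an inhibitor of the protease that frees IGF1 from its binding proteins, was at 1.05 to 1.92 log2 CPM in D2 control mice and at -4.64 to -1.16 in B6 control mice (adjusted p = 6.15e-05 in limma). The B6 values are near the lower limit of the table. Braf (0.61), Inpp5k (0.42), Sh2b2 (1.03) and Tsc1 (0.54) rose as well in D2 relative to B6, while Tsc2 fell by 0.64 (adjusted p = 0.0195 in limma). These 6 were called in the same direction with the groups of the column names and without the 2 mice in doubt, but the adjusted p of Sh2b2 was then 0.0627 and 0.114 in limma. The difference in stress response between strains was called for 3 of 59 genes, 5.08%, beside 5.37% of all genes: Mapk3 (-0.68), Eif4ebp1 (-0.81) and Ptpn11 (-0.80, D2 minus B6), with adjusted p of 0.918 in limma. With the groups of the column names the call of Mapk3 was lost (-0.46).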

How the data were processed

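The authors aligned AGO2 mRNA and blood reads to GRCm38 with STAR, counted Ensembl genes with HTSeq, removed genes of low abundance and normalized with voom, and quantified miRNAs with miRDeep2 and Bowtie 1.1.1 against miRBase. The deposited values are log2 CPM (counts scaled to library size). Whole reads were recovered from them (tolerance 0.0001), and depth was taken from those reads. All groups of a table entered 1 limma model (limma 3.58.1, R 4.3.3; empirical Bayes with a mean-variance trend), with Benjamini-Hochberg adjustment over all its features. A feature was called at an unadjusted p under 0.05 and a fold of at least 1.2, the study's rule. Single values were also tested by two-sided exact permutation (scipy 1.17.1). The study's corrections, of AGO2 mRNA for cohort and of AGO2 miRNA for surrogate variables, were not repeated, since the labels give no cohort and the variables are not given. Whether libraries came from separate animals or pools beyond their labels is not stated, so p-values measure only the spread between samples. Members, pathway and marker lists were chosen with earlier results of these data known. Every member was named, with at most 6 called pathway genes for each comparison by p, the 3 genes most alike to a member, and the paired miRNAs, except for a few results that are not reported here. The statistical scripts were tested on simulated data. Figures were drawn with matplotlib 3.10.9. Alternatives are given at the end.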

Additional observations from a re-analysis of the deposited data

Results flagged for a closer look

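In 92 groups of 4 or 5 values of the members and their paired miRNAs, 3 held a sample far from the rest of its group by Dixon's test, where chance gives about 1 in 20 groups. In blood of B6 resilient mice, Igf1r was lowest in mouse 5, at 3.98 log2 CPM where the nearest mouse had 4.39, a gap of 0.731 of the group's range. In the same group Igfbp5 was highest in mouse 1, at 4.29 log2 CPM where the nearest had 3.23, a gap of 0.781 of the range. In D2 susceptible mice, Igf2 was highest in mouse 5, with 490 reads and 5.14 log2 CPM where the nearest had 2.74, a gap of 0.714 of the range.

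The interaction of stress and strain was called for Igfbp2 in blood, at 2.07 on the log2 scale (D2 minus B6, adjusted p = 0.918 in limma). It rests on 2 to 54 reads a mouse, and the call was lost with a prior count of 2 reads (1.69).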

How the results depend on the processing

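The planned edgeR quasi-likelihood test was not run. The deposited unit is log2, and the recovered whole reads were used in limma with voom and TMM scaling instead. The block for name prefixes gave no value for the comparison of strains, in which prefix and strain cannot be told apart. None of the 11 member fold changes recomputed under every setting turned its direction. Among those not called, with the groups of the column names, Igf2 between strains turned from 0.16 to -0.11, and in susceptible D2 mice Igf1r turned from -0.06 to 0.03, Igf2r from -0.07 to 0.05 and Pik3r1 from 0.00 to -0.16. The cause of the changes below was not tested. Members called between resilient and control pools went from 2 to 1 without a mean-variance trend, with sample weights and with a replicate block, where Irs1 kept its call and Igfbp5 lost it, and were 1 to 3 without single pools. Those between susceptible and control pools were 3 under every other setting and 2 to 4 without single pools, and those between susceptible and resilient pools were 0 and 0 to 2. Same-numbered AGO2 pools did not deviate together (r of -0.17 to 0.14 over 13 pairs), so the numbers were not taken as pairs.

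In blood, the 3 comparisons within B6 kept 0 members throughout. In D2 mice 0 members became 1, Igfbp2, with sample weights, with groups by column names and without the 2 mice whose names disagree (0 to 1 without single mice). Between strains 2 became 4 with quantile normalization and with groups by column names (1 to 3 without single mice). The interaction went from 1 to 0 with a prior count of 2 reads, with only features of at least 2 log2 CPM and with only the compared groups (0 to 1 without single mice).

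Paired miRNAs called went from 2 to 1 in resilient pools without a trend and with sample weights (0 to 3 without single pools), from 1 to 2 in susceptible pools with sample weights (0 to 2), and from 0 to 1 with quantile normalization and 2 with sample weights between these (0 to 3, with 3 without susceptible pool 4). The uncalled miR-7032-3p turned sign between susceptible and resilient pools, from 0.13 to -0.042 with TMM scaling, -0.084 with sample weights and -0.11 with a replicate block (-0.17 to 0.43 without single pools), and miR-134-3p in resilient pools ran from -0.24 to 0.044 without single pools.

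Other pathway genes called in AGO2 stayed within 1.5 times of 16 in both comparisons with controls under every other setting (9 to 18 and 11 to 21 without single pools) and went from 1 to 3 with TMM scaling between stressed groups (0 to 3). In blood of resilient B6 mice 1 became 0 with TMM scaling, a prior count of 2, the filter or the prefix block and 2 with sample weights (0 to 9 without single mice). In susceptible B6 mice 2 became 1 without a trend, with sample weights or with only the compared groups, and 0 with quantile normalization, the filter or the prefix block (0 to 7). Between those groups 1 became 2 with TMM scaling and 0 with only the compared groups (0 to 3). In D2 mice 0 became 2 with quantile normalization or column names, 5 with sample weights and 1 with only the compared groups or without the 2 mice (0 to 1). Between strains 10 became 18 with quantile normalization and 16 with sample weights (7 to 15), and for the interaction 3 became 5 with TMM scaling, sample weights or column names and 1 with the prefix block (1 to 7).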
